A study of Rattus norvegicus with 12 samples.

Results

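Aquaporins are channel proteins of the cell membrane that let water pass along osmotic gradients, and a subgroup, the aquaglyceroporins, also carries glycerol. Each cell type tends to use its own member: Aqp1 serves capillary endothelium and red cells, Aqp4 the end feet of astrocytes and the membrane of fast muscle fibres, Aqp3 the basal side of epithelia and, in several species, red cells, and Aqp7 the release of glycerol from fat cells. The genes described here were Aqp1, Aqp2, Aqp3, Aqp4, Aqp5, Aqp7, Aqp8 and Aqp9, 8 of the 14217 genes with a value on the array. They were chosen by symbol, from probe sets whose annotation gives exactly 1 gene, and 11 of the 31042 probe sets tested belonged to them. Aqp1 had 2 probe sets, Aqp4 had 3, and the others had 1 each.

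RNA came from the right tibia of female Sprague-Dawley rats on postnatal day 34, after the bone marrow was aspirated. All were born to dams kept on casein and were assigned at weaning to 1 of 4 regimens: a casein diet (CAS), a diet with soy protein isolate as the protein source (SPI), the casein diet with 17β-estradiol at 10 µg/kg/d from a subcutaneous pump (E2), and the SPI diet with the same pump dose (SPI+E2). The labels start treatment on day 21, and the methods wean the rats on day 20 and feed them for 14 d. Each group had 3 Affymetrix rat expression arrays, 12 in all, each carrying RNA pooled from 2 to 3 rats, so the errors and p-values describe variation from pool to pool rather than from rat to rat. In such bulk RNA, fewer cells of a type and less RNA per cell cannot be told apart.

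The deposited values are centred on the median of each probe set over the 12 arrays, so they hold differences between arrays and no absolute level. Whether a channel was present at all, and whether one was more abundant than another, cannot be read from them, and the same holds for the markers of bone. Values are taken as log2 units. The spread of an array over all probe sets was 0.128 to 0.211 (SD), widest for SPI pool 1. All pools are labelled female, yet Eif2s3y, a gene the reference places on chromosome Y, lay between -2.20 and -1.82 in the 3 CAS arrays and between -0.37 and 0.86 in the 9 treated arrays. Xist, the RNA that silences an X chromosome in females, was higher in every CAS array than in any treated array on all 4 of its probe sets, with CAS values from 0.09 to 0.35 and treated values from -0.16 to 0.08. Of the other Y probe sets, those of Sry and Tspy1 and 1 of Uty overlapped between CAS and treated arrays, and the other of Uty was higher in CAS. Every comparison against CAS below, and the interaction of diet and E2, carries this difference, which cannot be told apart from treatment there. Differences of means among the treated groups do not use the CAS arrays, but the errors and p-values of those comparisons do, since the spread was estimated over all 4 groups.

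Upstream sequence is shown for Aqp3 and Aqp1, since Aqp3 differed most between groups and both Aqp1 probe sets passed a test. The windows are the 250 bases before the transcription start in RefSeq on GRCr8, 5′ to 3′ on the strand of the gene. Aqp3 lies on the minus strand at chr5:61040684-61040933 and Aqp1 on the plus strand at chr4:85812534-85812783. Capitals mark matches to any of the 4 motifs searched on both strands. The TATA box, which positions the start of transcription, was spelled TATAAA. The GC box, bound by Sp1-type factors, was spelled GGGCGG. The estrogen receptor half-site was spelled AGGTCA. The site of GATA factors, which act in red cell precursors, was spelled AGATAA.
Aqp3: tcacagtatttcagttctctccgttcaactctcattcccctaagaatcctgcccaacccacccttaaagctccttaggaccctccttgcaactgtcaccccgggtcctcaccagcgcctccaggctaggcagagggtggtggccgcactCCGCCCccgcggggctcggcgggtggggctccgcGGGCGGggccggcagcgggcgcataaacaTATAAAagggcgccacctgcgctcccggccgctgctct
Aqp1: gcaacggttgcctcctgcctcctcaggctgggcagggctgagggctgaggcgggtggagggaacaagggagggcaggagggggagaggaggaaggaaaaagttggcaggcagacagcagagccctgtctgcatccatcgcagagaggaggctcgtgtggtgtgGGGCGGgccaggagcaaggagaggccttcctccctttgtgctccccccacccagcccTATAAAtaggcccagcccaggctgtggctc

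Both windows held 1 TATA box, which begins 38 bases before the start in Aqp3 and 30 bases before it in Aqp1. Aqp3 had 2 GC boxes and Aqp1 had 1. In the same window TATAAA was found in 12.9% of all 33469 RefSeq promoters and GGGCGG in 30.5%. Neither window held AGGTCA, which 14.1% of promoters hold, or AGATAA, which 10.3% hold. The only half-site among the members with a window was in Aqp5. The full palindrome, GGTCA and TGACC set 3 bases apart, was in no member window and in 0.0239% of promoters. No window was held for Aqp7. The Aqp7 and Aqp3 genes themselves are neighbours on chromosome 5, at 60968495 to 60982618 and 61035165 to 61040683, with 52546 bases and 0 whole protein-coding genes between them. Aqp2 and Aqp5 are neighbours on chromosome 7, 6206 bases apart.

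Aqp3, a channel for water and glycerol, was higher in CAS than in every treated group. It was chosen for being lower in all 3 treated groups, so its differences from CAS are given as a description with no test. The CAS arrays stood at 0.90, 0.44 and 1.05. The SPI arrays were at -0.01, 0.01 and 0.15, the E2 arrays at -0.25, -0.05 and -0.38, and the SPI+E2 arrays at 0.06, -0.07 and -0.16. No treated array reached the lowest CAS array, pool 2. The CAS mean was 0.80 ± 0.318 (SD, n = 3). The SPI mean was 0.05 ± 0.0879, that of E2 was -0.23 ± 0.167 and that of the combination was -0.05 ± 0.11. Against CAS, SPI was thus 0.75 lower, E2 1.03 lower and the combination 0.85 lower, or 1.68-fold, 2.04-fold and 1.81-fold on the log2 reading. Without CAS pool 2 these differences were -0.93, -1.20 and -1.03, and without CAS pool 3 they were -0.62, -0.90 and -0.73. After quantile normalization of the arrays they were -0.98, -1.28 and -1.10.

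**Figure D1:**
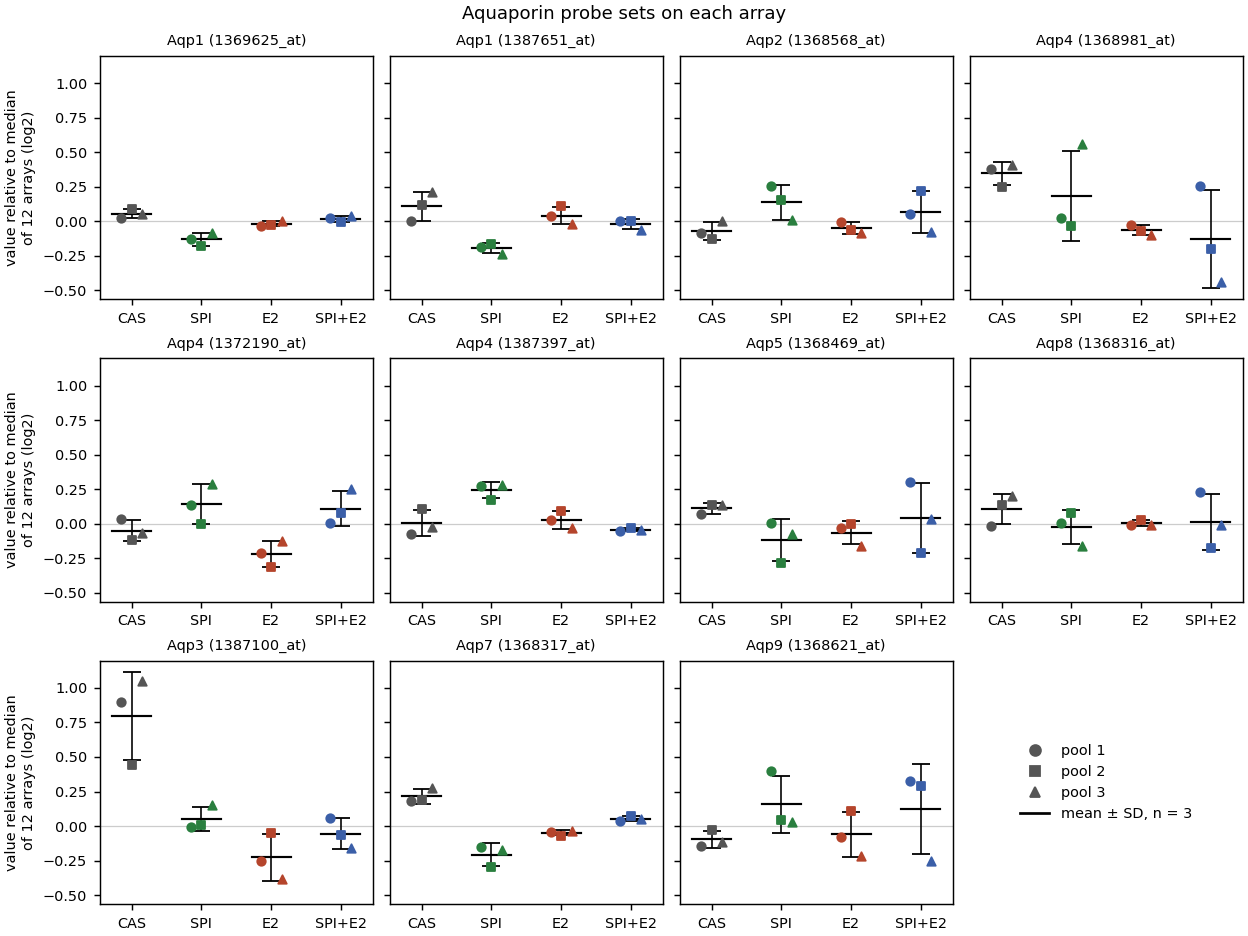
Values of the 11 aquaporin probe sets on each of the 12 arrays, in log2 units around the median of the probe set (y axis), by group (x axis). Points are pools, with the shape giving the pool number, and bars are the mean ± SD of 3 arrays; Aqp3 in CAS, from 0.44 to 1.05, stands above all 9 treated arrays.

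Differences of Aqp3 between the treated groups, which its choice did not use, did not pass the test. SPI and E2 differed by 0.28 (95% confidence interval -0.02 to 0.58, limma adjusted p = 0.192), with the SPI arrays all above the E2 arrays. SPI+E2 differed from SPI by -0.11 (interval -0.40 to 0.19, adjusted p = 0.704) and from E2 by 0.17 (interval -0.13 to 0.47, adjusted p = 0.465). The means ran from CAS through SPI and SPI+E2 to E2, with arrays that did not overlap between CAS and the rest or between SPI and E2. With E2 the mean was 1.03 lower on the casein diet and 0.11 lower on the SPI diet, a contrast given with no test. Fitted with only the groups compared, which leaves the spread of the CAS arrays out, the 3 differences did not pass either (adjusted p = 0.105, 0.537 and 0.299).

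Aqp3 and genes of red cell precursors were highest in the same 3 arrays. The erythroid list had values for 10 of 12 genes. With SPI 9 of them were lower and 1 did not pass, with E2 all 10 were lower, and with SPI+E2 all 10 were lower. Over all genes, 14.6%, 7.23% and 7.06% were lower in these comparisons. The median differences of the list were -0.45, -0.81 and -0.51, against medians over all genes close to 0. Car1, the carbonic anhydrase of red cells, differed by -0.57, -0.98 and -0.70, lower each time (limma adjusted p = 1.09e-06, 4.71e-08 and 1.12e-06). Slc4a1, the anion exchanger of the red cell membrane, fell by 0.524, 0.94 and 0.671 (adjusted p = 3.43e-06, 9.1e-08 and 2.44e-06). Rhag, a membrane protein of red cells that carries gases, fell by 0.588, 0.845 and 0.671 (limma adjusted p = 9.2e-06, 7.24e-07 and 1.59e-05), and Slc14a1, the urea channel of red cells, fell by 0.24, 0.52 and 0.27 (adjusted p = 0.0138, 0.00012 and 0.0131). The list mean lay from 0.45 to 0.46 on the CAS arrays. It spanned 0.02 to 0.06 for SPI arrays, -0.33 to -0.27 where E2 was given on casein, and -0.05 to -0.02 under the combination. These ranges do not overlap, and E2 was lowest, as for the mean of Aqp3. Being highest in the CAS arrays was not particular to this list. The means of the chondrocyte list (0.41 to 0.46), the adipocyte list (0.18 to 0.22) and the glycerol handling list (0.08 to 0.10) in CAS also lay above all treated arrays. The part of red cell content in the Aqp3 values was not tested.

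Epithelium is the other usual site of Aqp3. Of 13 such genes 3 were higher and 1 lower with SPI, 2 were higher with E2 and 1 was higher with SPI+E2, and the list medians were -0.01, 0.02 and 0.07. Over all genes 10.7%, 6.98% and 5.8% were higher in these comparisons and 14.6% were lower with SPI. The keratin genes Krt5 and Krt14 of basal skin cells did not pass in any of the 3 comparisons. The genes higher with SPI were Cdh1, Dsp and Perp, by 0.351, 0.34 and 0.265 (limma adjusted p = 0.000231, 0.0191 and 0.00497). Cdh1 and Perp also rose with E2, by 0.219 and 0.198 (adjusted p = 0.00746 and 0.0351). Krt10, of upper skin layers, fell by 0.46 with SPI (adjusted p = 0.0137). Krt19, of simple epithelia, rose by 0.79 with SPI+E2 (adjusted p = 0.00129).

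The probe sets whose profile over the 12 arrays was most like that of Aqp3, among 20826 with 1 symbol, were those of Usp7 (Pearson r = 0.94), Ell2 (0.935), Xist (0.931), H2az1 (0.922) and Rcan2 (0.921). The 12 arrays fall into 4 groups, so r mostly follows the group means and is a description only. Usp7, a deubiquitinating enzyme, had values 0.46, 0.64 and 0.58 below CAS in the 3 treated groups. Rcan2, an inhibitor of calcineurin, had values 0.25, 0.47 and 0.28 below CAS.

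**Figure D2:**
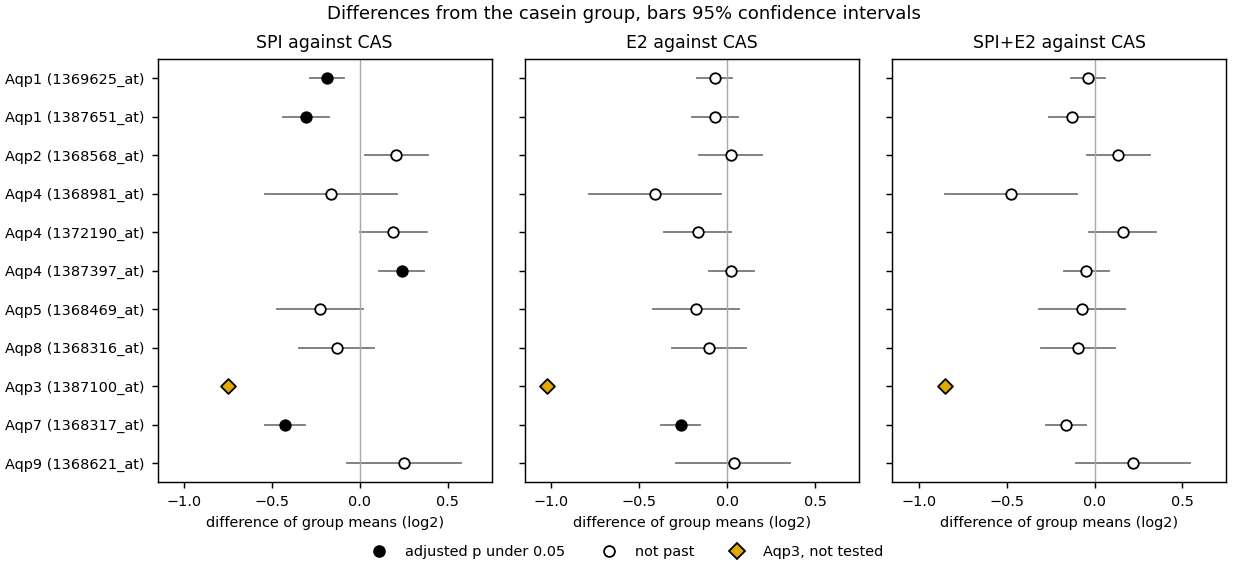
Difference of each treated group mean from the CAS mean in log2 units (x axis) for the 11 probe sets (y axis), 3 arrays against 3. Lines are 95% confidence intervals, filled circles passed the limma test, open circles did not, and Aqp3 (diamond) was not tested and has no interval; 4 circles are filled in the SPI panel, 1 in the E2 panel and 0 in that of the combination.

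The other aquaporins had smaller differences from CAS than Aqp3. Of the 10 probe sets besides Aqp3, 4 passed with SPI against CAS, 1 higher and 3 lower, where 17.3% of all probe sets passed, 8.25% of all higher and 9.07% lower. With E2 1 passed, lower, beside 9.35% of all probe sets called and 4.36% called lower. With SPI+E2 0 of the 10 passed limma's test, beside 8.48% of all, and 2 had an unadjusted p under 0.05. The arrays did not overlap with those of CAS for 7 of the 10 after SPI (33.9% of all probe sets), 5 after E2 (29.8%) and 1 after the combination (30.5%). Median differences were -0.15, -0.09 and -0.06, beside 0.01, -0.01 and 0.02 over all probe sets. The 3 comparisons share the CAS arrays. Across the 4 groups 5 of the 10 passed limma's F test, where 25.2% of all probe sets did: both of Aqp1, 2 of Aqp4, and Aqp7.

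Aqp7, through which fat cells release glycerol, fell with each treatment alone, and its lower value with both did not pass. Its CAS arrays stood at 0.18, 0.19 and 0.28, its SPI arrays at -0.15, -0.30 and -0.17, its E2 arrays at -0.04, -0.07 and -0.03 and its SPI+E2 arrays at 0.03, 0.07 and 0.05. None of the 4 groups overlapped another, and the order ran from CAS through SPI+E2 and E2 down to SPI. Aqp7 fell by 0.42 after SPI (SE 0.0519, limma adjusted p = 0.000179) and, under E2, by 0.26 (adjusted p = 0.00609). The difference of SPI+E2 from CAS was -0.16 (adjusted p = 0.075). It passed after quantile normalization at -0.20 (adjusted p = 0.037) and with a mean per gene (adjusted p = 0.0393).

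Aqp7 changed in opposite directions with E2 on the 2 diets. On the casein diet it fell by 0.26, and on the SPI diet it rose by 0.26 (SE 0.0519, adjusted p = 0.00693), with all 3 SPI+E2 arrays above all 3 SPI arrays. The interaction, which is the effect of E2 on the SPI diet minus its effect on the casein diet, was 0.52 (SE 0.0733, interval 0.36 to 0.68, adjusted p = 0.000581). The rise on the SPI diet missed the threshold when only the SPI and SPI+E2 arrays were fitted (0.26, adjusted p = 0.0633). SPI and E2 alone differed by -0.16 (interval -0.272 to -0.045, adjusted p = 0.0577), which did not pass. This difference passed without SPI pool 1 (-0.19, adjusted p = 0.0481), with array weights (-0.19, adjusted p = 0.0201) and with trend and robust variances (adjusted p = 0.0488). It also passed with adjustment over probe sets with 1 symbol (adjusted p = 0.041) and with a mean per gene (adjusted p = 0.0285). SPI+E2 and E2 differed by 0.10 (interval -0.01 to 0.21, adjusted p = 0.252).

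**Figure D3:**
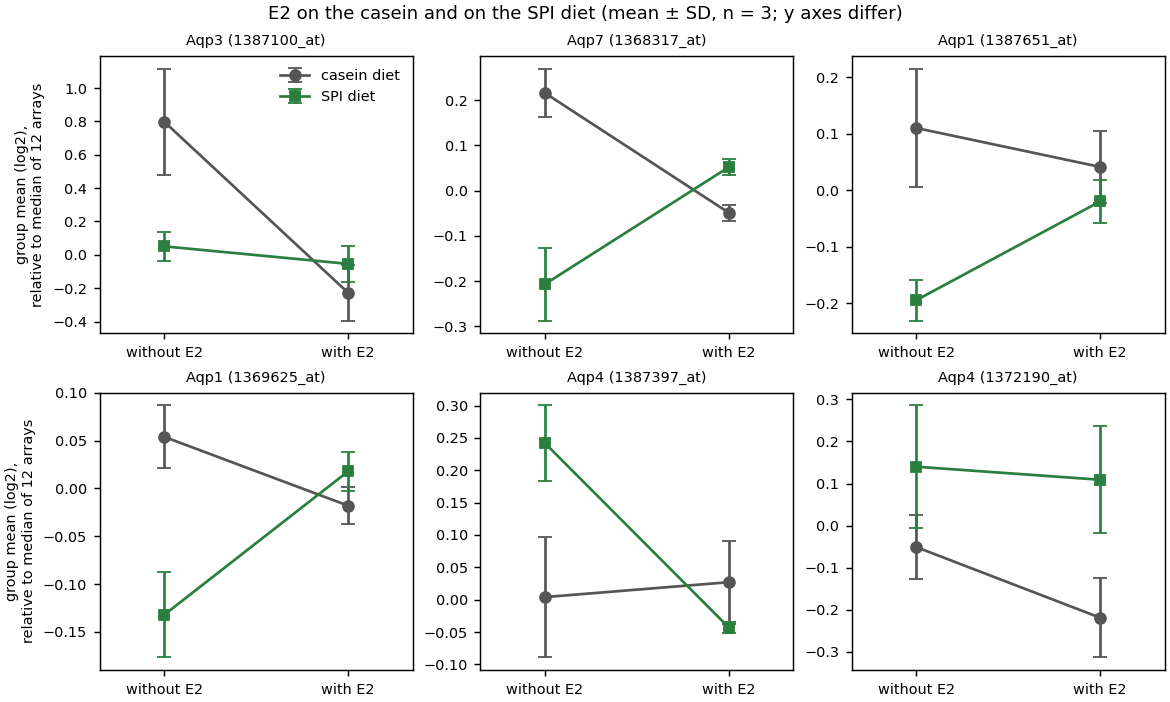
Group means ± SD (n = 3) in log2 units around the median of the probe set (y axis, scaled per panel) without and with E2 (x axis), on the casein diet (circles) and the SPI diet (squares), for Aqp3 and the probe sets that passed the F test. The lines of Aqp7 cross: 0.22 to -0.05 on casein and -0.21 to 0.05 on SPI.

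Part of the fat cell genes had lower values in the arrays where Aqp7 was low, and the brown fat genes Ucp1 and Cidea fell most. Of 10 measured genes of adipocytes and lipid droplets, 6 were lower after SPI, 5 after E2 and 4 after the combination, and 0 were higher in any of the 3, while 14.6%, 7.23% and 7.06% of all genes were lower. For the interaction 6 of the 10 were positive and 0 negative, where 8.03% of all genes were positive. The profile nearest to Aqp7 was that of Cidea (r = 0.966 over 12 arrays), a lipid droplet protein of brown fat, which fell by 0.92 after SPI, 0.57 after E2 and 0.41 after the combination (adjusted p = 3.95e-08, 2.08e-06 and 8.01e-05). Ucp1, the uncoupling protein of brown fat, differed by -0.98, -1.31 and -0.76, lower each time (adjusted p = 1.46e-07, 4.71e-08 and 5.19e-06). Next by profile to Aqp7 were Borcs8 (0.945) and Dhrs4 (0.941). Fabp4, the fatty acid carrier of fat cells, fell by 0.43 after SPI (adjusted p = 0.000161) and, under E2, by 0.19 (adjusted p = 0.0346). The hormone genes Adipoq and Lep and the droplet coat gene Plin1 did not pass in any of these comparisons. With SPI they differed from CAS by 0.01, 0.15 and 0.06, so the list mean does not stand for all its genes. The list mean ranged from 0.18 to 0.22 in CAS, from 0.04 to 0.11 in SPI+E2, from -0.13 to -0.09 in E2 and from -0.18 to -0.06 in SPI, and the part of fat cell content in the Aqp7 values was not tested.

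Genes of the glycerol handling list were lower in part. Of 11 genes of glycerol and triglyceride handling, 6 were lower after SPI (14.6% of all genes), 2 after E2 (7.23%) and 2 after the combination (7.06%), and 0 were higher. The counts with E2 and with the combination are close to the background. Gpd1, which makes glycerol 3-phosphate, fell by 0.38, 0.33 and 0.32 (adjusted p = 0.000351, 0.00109 and 0.00233). Agpat2, an enzyme of triglyceride synthesis, fell by 0.40, 0.47 and 0.21 (adjusted p = 0.000451, 0.000149 and 0.033). The glycerol kinase gene Gk and the lipase genes Lipe and Mgll did not pass in any of the 3. Pnpla2, another lipase gene of the list, was 0.257 lower after SPI (limma adjusted p = 0.0076). Its values under E2 and under the combination, -0.113 and 0.113 from CAS, missed the threshold (adjusted p = 0.266 and 0.242).

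Aqp1, the water channel of capillaries and red cells, passed against CAS only with SPI. Probe set 1387651_at stood between 0.00 and 0.21 in CAS and between -0.24 and -0.16 in SPI, while the E2 arrays ranged from -0.02 to 0.11 and the SPI+E2 arrays from -0.06 to 0.00. Probe set 1369625_at read 0.02, 0.09 and 0.05 in CAS, -0.13, -0.18 and -0.09 in SPI, and nowhere over 0.04 or under -0.03 in the other 6 arrays. On both, the SPI arrays lay below all 9 others. The fall was 0.31 for 1387651_at (SE 0.06, limma adjusted p = 0.00458) and 0.19 for 1369625_at (SE 0.0445, adjusted p = 0.0137). The second did not pass without CAS pool 2 (-0.17, adjusted p = 0.054), without SPI pool 2 (-0.16, adjusted p = 0.0523) or with only the 2 groups fitted (adjusted p = 0.0686), and the mean of the 2 probe sets fell by 0.245 (adjusted p = 0.000899).

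Against CAS the differences of Aqp1 did not pass with E2 (-0.07 on both probe sets, adjusted p = 0.619 and 0.426) or with SPI+E2 (-0.13 and -0.04, adjusted p = 0.219 and 0.68). SPI was lower than E2 by 0.24 on 1387651_at (adjusted p = 0.0191), which did not pass without E2 pool 1 (-0.24, adjusted p = 0.054), E2 pool 2 (-0.20, adjusted p = 0.071) or SPI pool 3 (-0.22, adjusted p = 0.052). With the 2 probe sets averaged, SPI+E2 was higher than SPI by 0.16 (adjusted p = 0.0151), while singly they gave 0.18 and 0.15 (adjusted p = 0.0877 and 0.0506).

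Of 10 measured endothelial genes, 2 were lower with SPI, 1 was lower with E2 and 2 were higher with SPI+E2, where 14.6% and 7.23% of all genes were lower and 5.8% were higher. The counts of lower genes are close to the background. The list mean lay from 0.02 to 0.04 in CAS, from 0.06 to 0.09 in SPI+E2, from -0.07 to -0.03 in SPI and from -0.08 to -0.04 in E2. Tie1, a receptor of endothelium, fell by 0.169 after SPI and by 0.251 under E2 (adjusted p = 0.0459 and 0.00972). Its difference with SPI+E2, -0.177, did not pass (adjusted p = 0.0599). The genes higher with SPI+E2 were Tek and Plvap, by 0.216 and 0.174 (adjusted p = 0.0237 and 0.0146). Of the 10 erythroid genes, 9 were lower with SPI and 10 with E2 and with SPI+E2 (14.6%, 7.23% and 7.06% of all genes). Their median differences were -0.45, -0.81 and -0.51, largest with E2, where Aqp1 did not pass. The part of either cell type in the Aqp1 values was not tested. The profiles nearest to probe set 1387651_at were those of Cebpa (r = 0.94), a transcription factor of fat and myeloid cells, and of Cav2 (0.934) and Cav1 (0.933), the coat proteins of caveolae. Nearest to 1369625_at were Dnal1 (0.964), Chpt1 (0.956) and Lsm10 (0.955). Cav1 had values 0.76 below CAS after SPI, 0.21 after E2 and 0.41 after the combination.

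Aqp4, the channel of astrocytes and fast muscle fibres, gave a different pattern on each of its 3 probe sets. Probe set 1387397_at was high in SPI only, at 0.27, 0.17 and 0.28, with CAS at -0.07, 0.11 and -0.02, E2 at 0.02, 0.09 and -0.04, and SPI+E2 at -0.05, -0.03 and -0.05. It rose by 0.24 with SPI against CAS (SE 0.0583, limma adjusted p = 0.0154) and fell by 0.28 when E2 was added to SPI (adjusted p = 0.00783). The rise did not pass without CAS pool 1 (0.20, adjusted p = 0.0713) or CAS pool 3 (0.22, adjusted p = 0.0586), nor after quantile normalization (0.18, adjusted p = 0.0605) or with only the 2 groups fitted (adjusted p = 0.0621). It was 0.21 higher with SPI than with E2 (adjusted p = 0.0267), which did not pass without E2 pool 1, E2 pool 3, SPI pool 1 or SPI pool 3 (adjusted p = 0.075, 0.105, 0.0721 and 0.0677). This difference also did not pass after quantile normalization (0.15, adjusted p = 0.117), with trend and robust variances (adjusted p = 0.0564) or with only the 2 groups fitted (adjusted p = 0.0686).

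Probe set 1372190_at was low in E2, at -0.21, -0.32 and -0.13, below every array of the other groups. CAS read 0.03, -0.12 and -0.06, SPI from 0.00 to 0.29 and SPI+E2 from 0.00 to 0.25. SPI was higher than E2 by 0.36 (SE 0.0865, adjusted p = 0.0148) and SPI+E2 was higher than E2 by 0.33 (adjusted p = 0.0327). The first did not pass without E2 pool 2 (0.31, adjusted p = 0.0571), and the second did not pass without E2 pool 1, E2 pool 2, SPI+E2 pool 2 or SPI+E2 pool 3 (adjusted p = 0.0869, 0.109, 0.0679 and 0.0998) or with only the 2 groups fitted (adjusted p = 0.0508). Against CAS the difference with E2 was -0.17 (adjusted p = 0.314).

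The third, 1368981_at, varied most between pools, from -0.04 to 0.56 in SPI and from -0.44 to 0.26 in SPI+E2, with CAS from 0.25 to 0.41 and E2 from -0.10 to -0.03. Its differences from CAS, -0.17 after SPI, -0.41 after E2 and -0.48 after the combination, did not pass (adjusted p = 0.57, 0.193 and 0.113). With only the CAS and E2 arrays fitted the E2 difference passed (adjusted p = 0.00362), and without SPI+E2 pool 1 the SPI+E2 difference did (-0.67, adjusted p = 0.0279). For SPI against CAS the 3 probe sets thus gave 0.24, 0.19 and -0.17, and their mean gave 0.09 (adjusted p = 0.409). Averaged, Aqp4 differed between SPI and E2 by 0.27 (adjusted p = 0.0164), while SPI+E2 differed from SPI by -0.21 (adjusted p = 0.0688) and from E2 by 0.06 (adjusted p = 0.589).

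The marker lists of both cell types known for Aqp4 held genes that changed with SPI, in opposite directions. Whether the tibia held astrocytes cannot be read from these values. Of 9 astrocyte genes, 4 were higher and 0 lower with SPI, 2 were higher and 1 lower with E2 and 1 was higher with SPI+E2, where 10.7%, 6.98% and 5.8% of all genes were higher. Aldoc, a glycolytic enzyme of astrocytes, rose by 1.165 after SPI, by 0.314 under E2 and by 0.326 under the combination (adjusted p = 1.05e-08, 0.00012 and 0.000226). Gfap, the filament of astrocytes and of non-myelinating Schwann cells, rose by 0.76 with SPI (adjusted p = 3.23e-06) and, under E2, fell by 1.13 (adjusted p = 2e-07). S100b, made by glia and Schwann cells, rose by 0.90 with SPI and 0.69 with E2 (adjusted p = 4.57e-08 and 4.38e-07). The potassium channel gene Kcnj10 and the glutamate transporter genes Slc1a2 and Slc1a3, which mark astrocytes, did not pass in these comparisons. The list mean was 0.29 to 0.32 in SPI and between -0.09 and -0.04 in the other groups, but 4 genes carried it, Aldoc, S100b, Gfap and Gjb6 (0.58 with SPI), while the other 5 differed from CAS by -0.12 to 0.06. The list median was 0.06 with SPI and 0.03 with E2, where Gfap and S100b went opposite ways. Of 13 skeletal muscle genes, of fast and slow fibres, 9 were lower with SPI, where 14.6% of all genes were. Myh7 and Tnnt1, of slow fibres, fell by 0.592 and 0.315 with SPI (adjusted p = 5.66e-06 and 0.000338). Tnnt3, of fast fibres, fell by 0.37 (adjusted p = 5.2e-05). The fast fibre myosin gene Myh2 fell by 0.179 with SPI (adjusted p = 0.00476). Myh1 and Myh4, also of fast fibres, did not pass with SPI (adjusted p = 0.42 and 0.456). Of 6 measured genes of the dystrophin complex, which anchors Aqp4 in muscle, 4 were lower after SPI, 0 after E2 and 1 after the combination, where 14.6%, 7.23% and 7.06% of all genes were. Sgcb and Sgca, sarcoglycans of the muscle membrane, fell by 0.509 and 0.40 after SPI (adjusted p = 0.00114 and 4.17e-05). With E2 1 muscle gene was higher and 1 lower (6.98% and 7.23% of all genes), and with SPI+E2 2 were higher and 1 lower (5.8% and 7.06%).

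**Figure D4:**
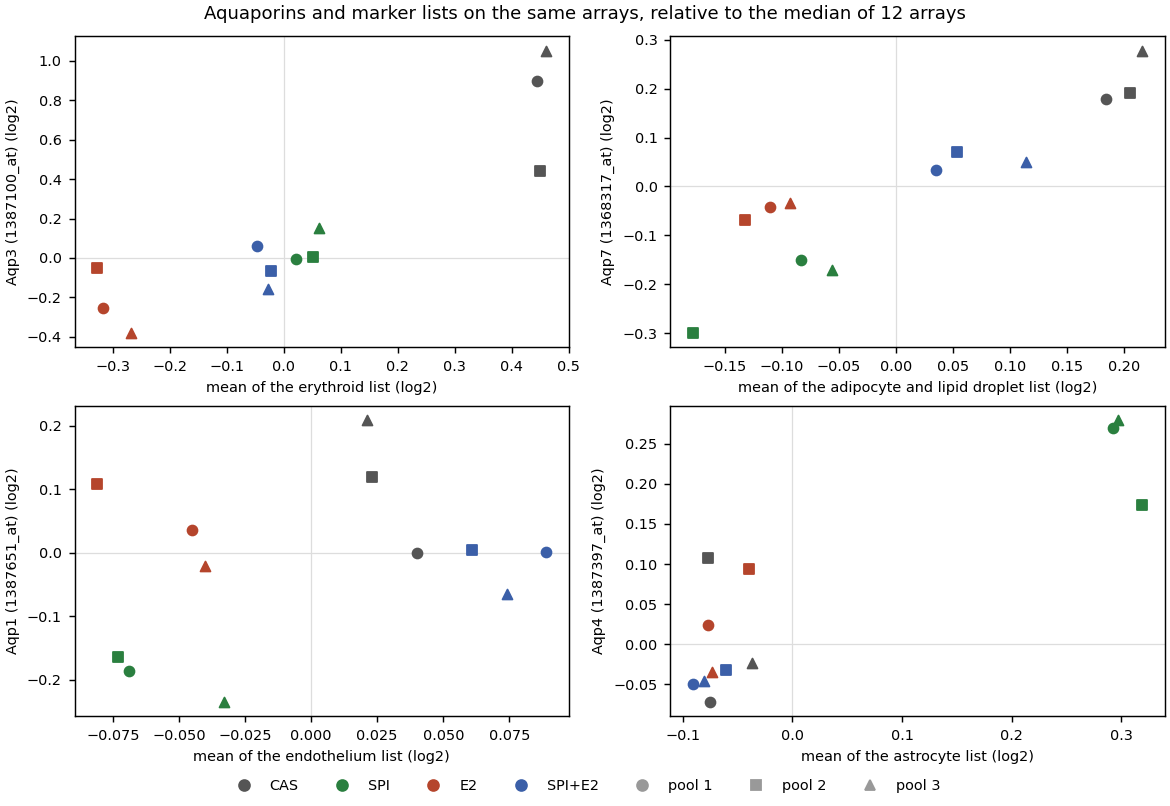
One aquaporin probe set (y axis) against the mean of a marker list on the same array (x axis), both in log2 units around the median of 12 arrays; colours give the group and shapes the pool. Aqp3 and the erythroid list are both highest in the 3 CAS arrays, as are the adipocyte list and, not drawn, the chondrocyte and glycerol handling lists. Aqp4 probe set 1387397_at and the astrocyte list are both highest in the 3 SPI arrays, with 4 of the 9 list genes carrying that mean. For Aqp1 and Aqp4 the probe set drawn is the one with the largest difference between SPI and CAS, so its match with a list is no test. On Aqp4 probe sets 1372190_at and 1368981_at, not drawn, the SPI arrays overlap those of CAS.

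Aqp9, a glycerol channel of liver and white blood cells, passed in none of the 6 comparisons of groups. It read -0.15, -0.03 and -0.12 in CAS and 0.40, 0.04 and 0.03 in SPI, with SPI all above CAS, and it spread from -0.25 to 0.33 in SPI+E2. Its differences from CAS were 0.25 after SPI (interval -0.07 to 0.58), 0.04 after E2 and 0.22 after the combination (adjusted p = 0.285, 0.944 and 0.415). Of 8 neutrophil and monocyte genes 3 were higher and 2 lower with SPI, 5 were lower with E2 and 5 were higher with SPI+E2. Of all genes 10.7% were higher and 14.6% lower with SPI, 7.23% were lower with E2 and 5.8% were higher with SPI+E2. The granule gene Lcn2 rose by 0.83 with SPI+E2 (adjusted p = 4.91e-07). Fcnb fell by 0.597 with E2 and Cd14 by 0.354 with SPI (adjusted p = 5.02e-05 and 0.00137).

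Aqp2, Aqp5 and Aqp8, known from the kidney collecting duct, from glands and from the digestive tract, also passed in none of the 6. Their differences from CAS ranged from -0.23 to 0.21. Aqp2 was 0.21 higher with SPI (interval 0.03 to 0.39, adjusted p = 0.107), its SPI arrays all above the CAS arrays, and passed without SPI pool 3 (0.27, adjusted p = 0.0457). Aqp5 was 0.23 lower with SPI (interval -0.47 to 0.02, adjusted p = 0.195). Aqp8 differed from CAS by -0.13, -0.10 and -0.09 (adjusted p = 0.401, 0.651 and 0.609), with arrays that overlapped those of CAS each time.

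Between treated groups, 3 of the 11 probe sets passed for SPI against E2, 2 higher and 1 lower, where 16.7% of all probe sets passed, 7.98% higher and 8.75% lower. The arrays of these groups did not overlap for 7 of the 11 (33.9% of all). For SPI+E2 against SPI 2 passed, Aqp7 higher and Aqp4 1387397_at lower, where 11.4% of all did, 5.56% higher and 5.83% lower, and arrays did not overlap for 4 of the 11 (26.1% of all). For SPI+E2 against E2 1 passed, Aqp4 1372190_at, where 10.5% of all did and 4.92% were higher, and arrays did not overlap for 2 of the 11 (32.1% of all). For the interaction 3 of 10 passed, Aqp3 left out, 2 positive and 1 negative, where 9.92% of all did, 4.17% positive and 5.75% negative.

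The family members Aqp6, Aqp11 and Aqp12a were also on the array and lie outside the list. Aqp11, a channel of intracellular membranes, rose by 0.68 with SPI against CAS (SE 0.158, limma adjusted p = 0.0116). Its CAS arrays read from -0.41 to -0.10 and its SPI arrays from 0.19 to 0.68. With E2 and SPI+E2 its differences were 0.30 and 0.32 (adjusted p = 0.333 and 0.248). Aqp6 and Aqp12a did not pass in any comparison.

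Of 15 measured genes of water, urea and osmolyte transport, 1 was higher and 3 lower with SPI, 3 higher and 2 lower with E2, and 2 higher and 2 lower with SPI+E2, with list medians of 0.07, 0.02 and 0.02. Of all genes 10.7%, 6.98% and 5.8% were higher and 14.6%, 7.23% and 7.06% lower. Slc6a6, the taurine carrier, rose by 0.22 with SPI and 0.24 with SPI+E2 (adjusted p = 0.00126 and 0.00156). Slc12a2, the sodium, potassium and chloride cotransporter, rose by 0.21 with E2 (adjusted p = 0.00282), and Nfat5, the osmotic stress factor, by 0.14 with E2 and 0.14 with SPI+E2 (adjusted p = 0.0301 and 0.0318). The genes lower in this list included Rhag and Slc14a1, which it shares with the erythroid list. Among bone cells, 3 of 10 osteoblast and osteocyte genes were lower after SPI, 0 after E2 and 3 after the combination, and 7, 5 and 6 of 8 chondrocyte genes were lower, where 14.6%, 7.23% and 7.06% of all genes were. Phex, an osteocyte enzyme of phosphate balance, fell by 0.788 after SPI (adjusted p = 0.000248), and Col10a1, the collagen of hypertrophic cartilage, differed by -1.99, -1.10 and -1.27, lower each time (adjusted p = 2.53e-09, 1.46e-07 and 1.22e-07).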

How the data were processed

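The authors pooled RNA of 2 to 3 rats per array and processed the probe intensities with GCOS and RMA to log2 values, and the deposited values had a further GeneSpring step that scaled each chip and each gene. The scale after that step is not stated and was taken as log2. Groups came from the sample titles, and every sample column could be used. Of 31099 probe sets, 57 controls were left out. Gene symbols came from the platform annotation, with 1 symbol for 20826 probe sets, several for 436 and none for 9780, and the aquaporins were matched by gene number to RefSeq on GRCr8.

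All probe sets were modelled together by group (4 groups) with limma 3.58.1 in R 4.3.3, with p-values adjusted by Benjamini-Hochberg over all of them and called under 0.05. Gene lists (erythroid, adipocyte, glycerol handling, water and osmolyte handling, dystrophin complex, skeletal muscle, astrocyte, epithelium, endothelium, neutrophil and monocyte, osteoblast and osteocyte, chondrocyte) used the mean of the probe sets of each gene, fitted over 14217 genes, and adjusted p-values of genes without a probe set number other than aquaporins are from that limma fit. The members and lists were chosen with earlier results of these data known, so none of this is independent evidence. Named genes were all member probe sets and up to 3 called genes of largest change per list and comparison (not all are printed). Nfat5, Myh2, Pnpla2, Slc14a1 among the erythroid genes and the uncalled markers were also named, chosen after their values were seen. The 3 to 5 nearest profiles by Pearson correlation were named as well. Centred values hold no measure of background, and precision is set by having 3 arrays a group. The fit was tested on simulated data. Alternatives were a replicate block, quantile normalization, array medians set to 0, trend and robust variances, array weights, adjustment over probe sets with 1 symbol, a mean per gene, fits of 2 groups, group medians, an unmoderated ANOVA, and leaving out each array.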

Additional observations from a re-analysis of the deposited data

Results flagged for a closer look

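For 3 aquaporin probe sets the effect of E2 on the SPI diet differed from its effect on the casein diet by limma's interaction test. For Aqp7 the interaction was 0.524 log2 units (adjusted p = 0.000581), and it passed in every alternative fitted, with adjusted p up to 0.00242. For Aqp1 probe set 1369625_at it was 0.222 (adjusted p = 0.046), with E2 at -0.07 on casein and 0.15 on SPI. It did not pass without any 1 array other than SPI pool 3, with adjusted p up to 0.109. For Aqp4 probe set 1387397_at it was -0.309 (adjusted p = 0.0348), with E2 at 0.02 on casein and -0.28 on SPI. It missed the threshold without 9 of the 12 arrays, with adjusted p between 0.0541 and 0.914 over the alternatives where it did not pass. The other Aqp4 probe sets had interactions of the other sign, 0.099 for 1368981_at and 0.137 for 1372190_at (adjusted p = 0.873 and 0.595). The mean of the 3 gave -0.024 (adjusted p = 0.914). The 12 interaction arrays include CAS, where Eif2s3y and Xist stood apart from all treated arrays, and the part of that difference was not tested.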

How the results depend on the processing

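No aquaporin value that passed the test changed sign under any alternative. Counts of probe sets passing out of 10 or 11 moved by more than 1.5 times as follows. With a replicate block the interaction count was 1 and not 3. After quantile normalization it was 1 for SPI+E2 against CAS and 1 for the interaction. With only the 2 groups fitted it was 2 for SPI against CAS, 2 for E2 against CAS, 1 for SPI+E2 against SPI and 0 for SPI+E2 against E2. With a mean per gene, over 7 or 8 genes in place of probe sets, 2 passed for SPI against CAS, 1 for SPI+E2 against CAS, 0 for SPI+E2 against E2 and 3 in the F test. Leaving out each array gave 3 to 5 for SPI against CAS, 1 to 1 for E2 against CAS, 0 to 1 for SPI+E2 against CAS, 1 to 3 for SPI against E2, 2 to 3 for SPI+E2 against SPI, 0 to 1 for SPI+E2 against E2, 1 to 2 for the interaction and 3 to 5 in the F test. The cause of these shifts was not tested, beyond the fewer arrays or genes in some fits. The falls of Aqp7 with SPI and with E2, its interaction and the fall of Aqp1 probe set 1387651_at with SPI passed in all alternatives with a test. Over the whole table, counts passing fell with only the 2 groups fitted from 5376 to 3581 for SPI against CAS, from 5195 to 3190 for SPI against E2 and from 3537 to 1662 for SPI+E2 against SPI. Without 1 array the lowest counts were 1408 of 2631 for SPI+E2 against CAS (CAS pool 3), 1852 of 3245 for SPI+E2 against E2 (E2 pool 3) and 3415 of 5195 for SPI against E2 (E2 pool 3). The trend in variance was fitted on row means of centred values. Residuals of same-numbered pools had a median correlation of 0.0439 over 18 pairs, 14 of them at 0.1 or less, against -0.015 over 36 pairs of other numbers, 33 of them at 0.1 or less. The 3 treated pairs of pool 3 (0.129, 0.158 and 0.244) and CAS with E2 pool 2 (0.142) were higher. Not every pair passed 0.1, so the numbers were not taken to pair the pools. The replicate block ended the interaction calls of Aqp1 1369625_at (adjusted p = 0.0666) and Aqp4 1387397_at (0.0541) and no call between groups named here. In the F test 4 and not 5 probe sets passed with the block.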
